A study of Mus musculus with 6 samples.

Results

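The genes described here encode the corepressor Trim28, its partners Setdb1, Atf7ip and Zfp57, the 3 HP1 proteins (Cbx1, Cbx3 and Cbx5) and the histone methyltransferases Suv39h1, Suv39h2 and Ehmt1. They are 10 of the 52870 features in the deposited tables, were chosen by name from what their proteins do, and all 10 were found and passed the filter on low values. RNA was sequenced from mouse embryonic stem cells of the C57BL/6 strain. 3 libraries came from cells of genotype Rbbp4-/- (Rbbp4KO in the sample titles) and 3 from Rbbp4F/F cells, which the series title names as the control. Both groups carry the same cell type and strain labels, and no treatment is given. Rbbp4 encodes a histone-binding subunit of many chromatin complexes. The sources used here do not give the deleted exons, how or when the deletion was made, or whether replicates are separate clones or cultures, so p-values measure the spread between these libraries, which may be technical.

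Heterochromatin in mammals is marked by methylation of lysine 9 of histone H3. In stem cells, KRAB zinc finger proteins such as Zfp57 bind chosen DNA sequences and recruit Trim28 (also called KAP1), which in turn brings Setdb1 to methylate that lysine over endogenous retroviruses and imprinting control regions. HP1 proteins bind the methylated lysine, Suv39h1 and Suv39h2 place it at pericentromeric repeats, and Ehmt1 (GLP) works with Ehmt2 (G9a) in euchromatin.

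Values are FPKM, fragments per kilobase of transcript and of library size, so levels of different genes can be compared per length. The spacing of low values put the depth of the libraries at an estimated 25300000 to 28900000 fragments, at which 1 fragment on a 2 kb transcript is worth 0.0200 to 0.0228 FPKM. The targeted gene went the way its labels say. Rbbp4 (GRCm38 chromosome 4, 129307100 to 129335370, minus strand) had 21.3, 12.7 and 11.1 FPKM in Rbbp4KO replicates 1 to 3, against 58.5, 57.0 and 61.8 FPKM in Rbbp4F/F replicates 1 to 3 (log2 fold change −1.96, SE 0.22, limma adjusted p = 0.000394). Antisense exons of another gene cover up to 9.10% of its exonic length. Rbbp4KO replicate 1 kept the most Rbbp4 and stood apart from the other Rbbp4KO libraries on the second principal component. Stem cell markers were present in all libraries, with Pou5f1 at 503, 340 and 290 FPKM in Rbbp4KO cells, against 1137, 1158 and 1043 FPKM in Rbbp4F/F cells. Of 8 such markers 7 fell, and the summed level of the list was 1390 to 2175 FPKM in Rbbp4KO cells and 4705 to 4855 FPKM in Rbbp4F/F cells. Of 7 trophoblast markers, 6 rose, with sums of 2184 to 3932 FPKM in Rbbp4KO cells and 109 to 167 FPKM in Rbbp4F/F cells, most of it from Krt8 and Krt18. Among those 6, Cdx2 and Gata3 passed the filter through the Rbbp4KO libraries alone. Of 7 primitive endoderm markers, 3 of the 4 tested rose, with sums of 23.2 to 29.02 FPKM in Rbbp4KO cells and 4.47 to 5.79 FPKM in Rbbp4F/F cells. Of those 3, Gata4 passed the filter through the Rbbp4KO libraries alone and Dab2 reached 1 FPKM in only 1 Rbbp4F/F library. Of 8 fibroblast markers, 7 stayed below the filter and 1 fell, with sums of 9.85 to 10.63 FPKM in Rbbp4KO cells and 12.7 to 19.1 FPKM in Rbbp4F/F cells. The gene that fell, Thy1, carried most of these sums, and Col1a2, Col3a1, Dcn, Lum and Pdgfra were higher in every Rbbp4KO library than in any Rbbp4F/F library, at up to 0.98 FPKM. Mitochondrial genes held 1.54%, 2.21% and 3.18% of the FPKM sum in Rbbp4KO replicates 1 to 3, against 2.98%, 3.15% and 3.71% in Rbbp4F/F replicates 1 to 3, lowest in Rbbp4KO replicate 1 and with overlapping groups. The part of these differences in the results below was not tested, and in bulk RNA fewer cells of a type cannot be told apart from less RNA per cell.

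Most of the 10 silencing factors were lower in Rbbp4KO cells. 6 fell (Trim28, Setdb1, Zfp57, Cbx1, Cbx3 and Ehmt1), 2 rose (Suv39h1 and Suv39h2), and Atf7ip and Cbx5 did not pass the test (limma on log2(FPKM + 1), Benjamini-Hochberg adjusted p under 0.05). The background was broad: of 13579 genes tested, 59.1% were called, 36.7% as higher and 22.5% as lower. The median log2 fold change was −0.28 over the 10 genes and 0.17 over all tested genes. The groups did not overlap in 66.8% of tested genes and in 9 of the 10. In 6 of the 10 genes every Rbbp4KO library lay below every Rbbp4F/F library, as in 25.5% of tested genes, and in 3 every one lay above, as in 41.3%. Where the libraries were rescaled to equal FPKM sums, 4 of the 10 were lower and 3 higher, and with median-ratio scaling 6 were lower and 1 higher. Across all tested genes the same change of scaling took the calls to 6036 higher and 2393 lower with equal sums, and to 3887 higher and 3969 lower with median-ratio scaling, against 4978 and 3051 with the values as deposited. The median of all tested genes was then 0.31 with equal sums and 0.03 with upper-quartile scaling, and median-ratio scaling put it at 0.

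**Figure D1:**
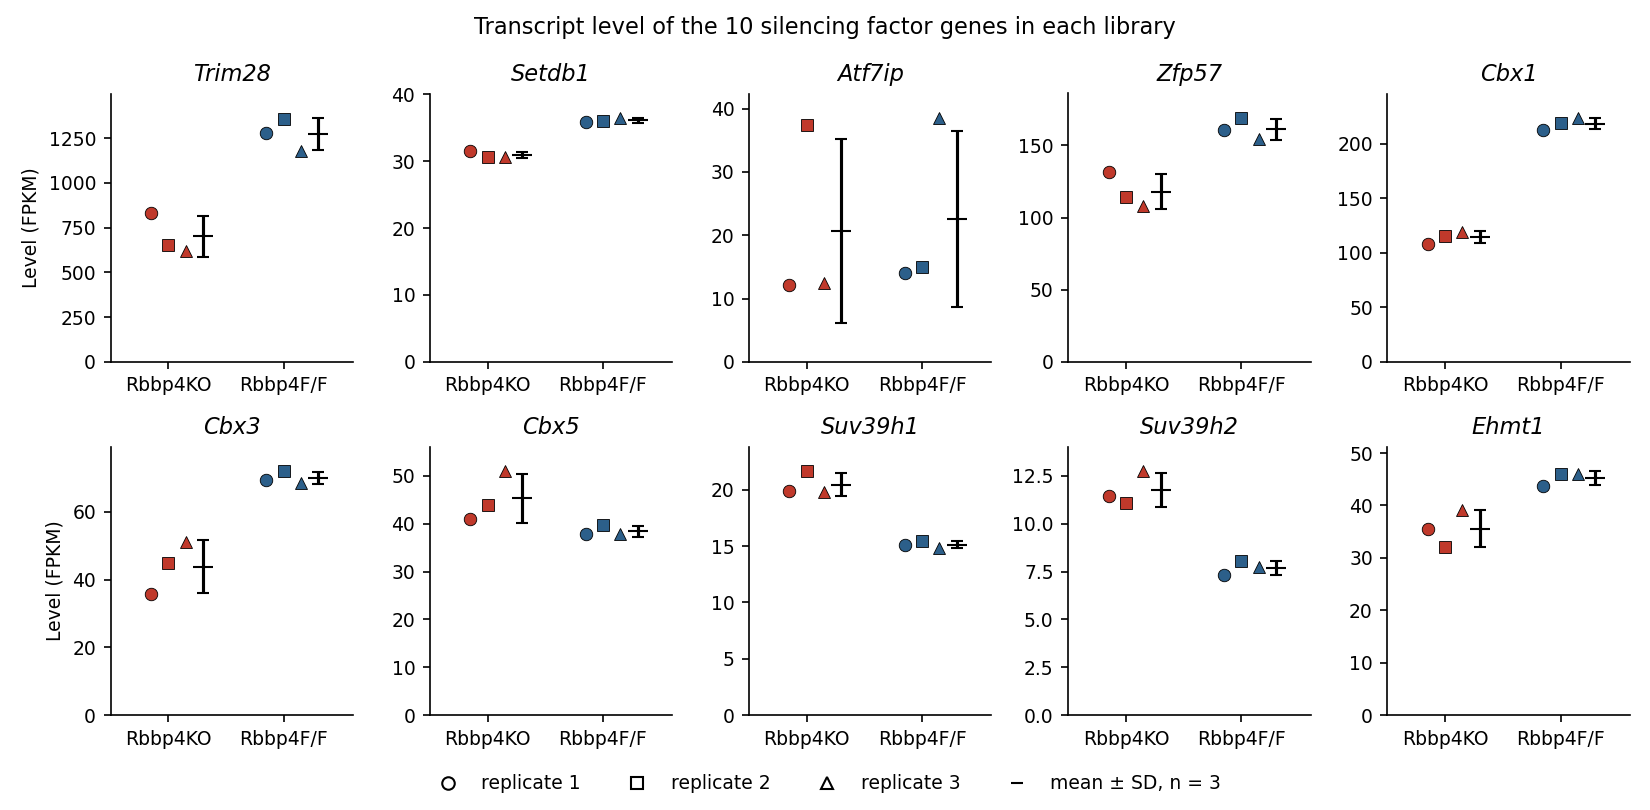
Transcript level in FPKM of the 10 genes, 1 panel each with its own axis from 0; points are libraries (Rbbp4KO left, Rbbp4F/F right) and the bar is the mean ± SD of 3 libraries. Trim28, Setdb1, Zfp57, Cbx1, Cbx3 and Ehmt1 lie lower in every Rbbp4KO library, Cbx5, Suv39h1 and Suv39h2 lie higher, and Atf7ip has 1 library per group at 37.4 and 38.5 FPKM.

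Trim28, the scaffold of the pathway, was by far its most abundant transcript and changed most in absolute terms. Trim28 (ENSMUSG00000005566, GRCm38 chromosome 7, 12999114 to 13031035, plus strand, 11 exonic blocks) had 833, 651 and 622 FPKM in Rbbp4KO replicates 1 to 3, against 1281, 1358 and 1177 FPKM in Rbbp4F/F replicates 1 to 3. The groups did not overlap, and the highest Rbbp4KO value was that of replicate 1. The mean was 702 ± 115 FPKM in Rbbp4KO cells and 1272 ± 90.7 FPKM in Rbbp4F/F cells (SD, n = 3 each), so that 55.2% of the Rbbp4F/F level remained. The log2 fold change was −0.87 (SE 0.13, limma adjusted p = 0.00122). Ranked by mean level among the 13579 tested genes, Trim28 took rank 148 in Rbbp4KO cells and rank 109 in Rbbp4F/F cells. Its fall was called under every alternative run, with log2 fold changes between −1.06 and −0.71.

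Setdb1, the methyltransferase that Trim28 recruits, fell by a small amount with little spread. Setdb1 (chromosome 3, 95323525 to 95357202, minus strand) had 31.5, 30.7 and 30.7 FPKM in the Rbbp4KO libraries, against 35.9, 35.9 and 36.5 FPKM in the Rbbp4F/F libraries. These levels form narrow bands that do not overlap. The log2 fold change was −0.21 (SE 0.07, limma adjusted p = 0.0332), and 85.8% of the Rbbp4F/F mean remained. Antisense exons of another gene cover up to 3.63% of its exonic length. The call did not hold under several alternatives. Among these, it was lost with Rbbp4F/F replicate 1 (adjusted p = 0.104), 2 (0.0928) or 3 (0.0889) or Rbbp4KO replicate 2 (0.102) or 3 (0.0724) left out, and with equal FPKM sums (−0.060, adjusted p = 0.478). It held without Rbbp4KO replicate 1 (0.0136) and with median-ratio scaling (−0.40, adjusted p = 0.00271).

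Atf7ip, which encodes the cofactor that binds and stabilizes Setdb1, had the least reproducible values of the 10. Atf7ip (chromosome 6, 136506167 to 136610862, plus strand) had 12.1, 37.4 and 12.4 FPKM in Rbbp4KO replicates 1 to 3, against 14.1, 15.0 and 38.5 FPKM in Rbbp4F/F replicates 1 to 3. Rbbp4KO replicate 2 and Rbbp4F/F replicate 3 thus stood at about the same high level, and the other 4 libraries lay together at a low one. No difference between the genotypes was called (log2 fold change −0.16, SE 0.52, limma adjusted p = 0.805), and the sign turned without Rbbp4F/F replicate 3 (0.29), Rbbp4KO replicate 1 (0.10) or Rbbp4KO replicate 3 (0.083). The 4 libraries at the low level do separate, at up to 12.4 FPKM in Rbbp4KO cells and from 14.1 FPKM in Rbbp4F/F cells, but they were picked after their values were seen and were not tested. Only 2.03% of tested genes had a larger SD within groups on the log2 scale. Among 9449 genes with a mean of at least 5 FPKM, a library at least 2-fold above both others of its group, while those 2 lay close to each other, was found for 16 genes in Rbbp4KO replicate 2 and 22 in Rbbp4F/F replicate 3. Atf7ip was the 1 gene that showed this in both. Its 12 annotated transcripts run from 177 to 8059 bases, and the deposited value is 1 per gene.

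Zfp57, the zinc finger protein that recognises methylated imprinting control regions, fell as well. Zfp57 (chromosome 17, 37001163 to 37010635, plus strand) had 131, 115 and 108 FPKM in the Rbbp4KO libraries, against 160, 169 and 154 FPKM in the Rbbp4F/F libraries. Every Rbbp4KO value lay below the lowest Rbbp4F/F value, and 73.2% of the Rbbp4F/F mean remained. The log2 fold change was −0.45 (SE 0.09, limma adjusted p = 0.00489), and the call held under every alternative run, from −0.64 with median-ratio scaling to −0.29 with equal FPKM sums.

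Of the 3 HP1 genes, Cbx1 and Cbx3 fell and Cbx5 did not pass the test. Cbx1, which encodes HP1-beta (chromosome 11, 96789127 to 96808640, plus strand), had 108, 116 and 119 FPKM in the Rbbp4KO libraries, against 213, 219 and 223 FPKM in the Rbbp4F/F libraries. The groups are tight and far apart, and Cbx1 had the largest log2 fold change of the 10 genes, −0.93 (SE 0.07, limma adjusted p = 8.67e-05), at 114 ± 5.43 FPKM in Rbbp4KO cells and 218 ± 5.29 FPKM in Rbbp4F/F cells (SD, n = 3 each). Cbx3, which encodes HP1-gamma (chromosome 6, 51470360 to 51483704, plus strand), had 35.7, 44.8 and 51.1 FPKM in the Rbbp4KO libraries, against 69.5, 72.0 and 68.5 FPKM in the Rbbp4F/F libraries. Its Rbbp4KO values spread widely below a narrow Rbbp4F/F band, with replicate 1 lowest (log2 fold change −0.68, SE 0.13, limma adjusted p = 0.00394). 8 pseudogenes named after Cbx3 are annotated, and the highest value of any of them was 1.52 FPKM, so reads shared with such copies are uncertain. Cbx5, which encodes HP1-alpha (chromosome 15, 103191544 to 103239816, minus strand), had 41.05, 44.0 and 51.0 FPKM in the Rbbp4KO libraries, against 37.7, 39.6 and 37.8 FPKM in the Rbbp4F/F libraries. No Rbbp4KO value reached down into the Rbbp4F/F range, but the test did not pass (log2 fold change 0.23, SE 0.10, limma adjusted p = 0.0779). Cbx5 was called higher without Rbbp4KO replicate 1 (0.30, adjusted p = 0.0205) and with equal FPKM sums (0.38, adjusted p = 0.0176), and its log2 fold change was 0.04 with median-ratio scaling (adjusted p = 0.742).

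Because the makeup of the HP1 pool is a ratio within a library, it does not move with the scaling between libraries. Cbx5 made up 22.2%, 21.5% and 23.1% of the summed FPKM of Cbx1, Cbx3 and Cbx5 in the Rbbp4KO libraries, against 11.8%, 12.0% and 11.5% in the Rbbp4F/F libraries. Cbx1 made up 58.5%, 56.6% and 53.8% of that sum in the Rbbp4KO libraries, against 66.5%, 66.2% and 67.7% in the Rbbp4F/F libraries. The share of Cbx5 was thus higher and that of Cbx1 lower in all 3 Rbbp4KO libraries, each with an exact two-sided permutation p of 0.1, the smallest that 3 libraries against 3 can give (Benjamini-Hochberg adjusted p = 0.2 over the 8 ratios compared). For Cbx3 the share was 21.4 ± 1.96% in Rbbp4KO cells and 21.4 ± 0.558% in Rbbp4F/F cells, with overlapping values (exact permutation p = 1). Cbx1 stood at 2.53 ± 0.175 times the level of Cbx5 in Rbbp4KO cells and at 5.69 ± 0.196 times in Rbbp4F/F cells. The sum of the 3 genes was 203 ± 18.0 FPKM in Rbbp4KO cells and 327 ± 5.89 FPKM in Rbbp4F/F cells.

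**Figure D2:**
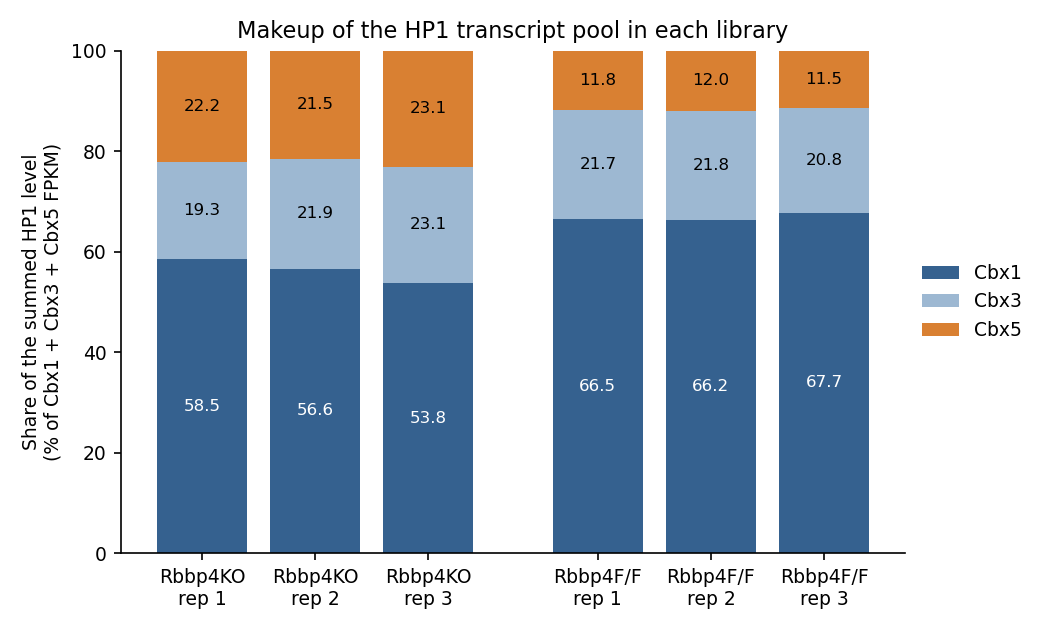
Share of Cbx1, Cbx3 and Cbx5 in their summed FPKM, in percent, 1 bar per library, with Rbbp4KO libraries on the left and Rbbp4F/F libraries on the right. The Cbx5 part is 21.5% to 23.1% in Rbbp4KO libraries and 11.5% to 12.0% in Rbbp4F/F libraries, while the Cbx3 part overlaps between the genotypes.

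The promoters of the 3 HP1 genes are shown because Cbx1 and Cbx3 fell while Cbx5 was not called, although their proteins bind the same mark. RefSeq start sites on GRCm38.p6 gave a promoter (250 bases before the start to 50 after it) for all 10 genes, and where several are listed the one nearest to the annotated 5′ end was taken. Capitals mark matches on either strand to 4 motifs, none of which overlap. The E2F-type motif was TTTNGCGC, and the NRF1-type motif, which leaves the base after its A free, was matched in these genes as GCGCAGGCGC. The GC box was GGGCGG. The remaining motif was the CCAAT box, searched as those 5 letters. A match describes these letters and is not a site of binding. The windows are chr11:96788885-96789184 (plus strand), chr6:51470366-51470665 (plus strand) and chr15:103239803-103240102 (minus strand).
Cbx1: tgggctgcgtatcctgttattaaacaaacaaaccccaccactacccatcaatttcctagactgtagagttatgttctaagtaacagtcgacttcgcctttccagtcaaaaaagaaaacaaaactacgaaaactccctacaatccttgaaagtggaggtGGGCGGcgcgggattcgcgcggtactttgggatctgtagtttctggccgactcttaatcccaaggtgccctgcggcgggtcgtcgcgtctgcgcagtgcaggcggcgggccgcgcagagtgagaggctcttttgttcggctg
Cbx3: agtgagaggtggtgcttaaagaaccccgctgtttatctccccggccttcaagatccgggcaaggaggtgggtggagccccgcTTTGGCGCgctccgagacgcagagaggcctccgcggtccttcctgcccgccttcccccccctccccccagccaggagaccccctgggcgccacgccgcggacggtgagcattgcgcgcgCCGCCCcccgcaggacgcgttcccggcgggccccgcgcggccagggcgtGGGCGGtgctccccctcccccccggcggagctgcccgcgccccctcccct
Cbx5: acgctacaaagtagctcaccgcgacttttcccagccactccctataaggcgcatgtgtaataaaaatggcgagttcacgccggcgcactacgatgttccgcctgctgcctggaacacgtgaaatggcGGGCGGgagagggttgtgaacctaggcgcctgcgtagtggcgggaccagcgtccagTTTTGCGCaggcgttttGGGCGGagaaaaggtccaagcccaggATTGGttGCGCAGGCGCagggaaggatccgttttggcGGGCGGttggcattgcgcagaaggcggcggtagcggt
The Cbx1 window held 1 GC box and none of the other motifs. In the Cbx3 window there were 1 E2F-type match and 2 GC boxes. The start site used for Cbx3 lay 256 bases from the annotated 5′ end, against 8 for Cbx1 and 36 for Cbx5. The Cbx3 window therefore lies wholly inside the annotated gene and is not the sequence upstream of that end. Cbx5 had 1 E2F-type match, 1 NRF1-type match, 3 GC boxes and 1 CCAAT box. Of all 32851 listed mouse promoters, 1.38% held the E2F-type motif, 4.60% the NRF1-type, 35.7% a GC box and 37.4% a CCAAT box. Among the 9864 tested genes with a listed promoter, the shares were 2.89% for the E2F-type motif, 11.7% for the NRF1-type, 70.3% for a GC box and 43.5% for a CCAAT box. In these shares a gene counted if any of its listed promoters held the motif, whereas each of the 10 genes was scored on 1 window.

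The homologous methyltransferase genes Suv39h1 and Suv39h2 both rose. Suv39h1 (chromosome X, 8061171 to 8074760, minus strand) had 19.9, 21.6 and 19.8 FPKM in the Rbbp4KO libraries, against 15.1, 15.4 and 14.8 FPKM in the Rbbp4F/F libraries. Its groups lie apart with small spread, at 135% of the Rbbp4F/F mean (log2 fold change 0.41, SE 0.09, limma adjusted p = 0.00564). Suv39h1 was not called with median-ratio scaling (0.23, adjusted p = 0.0571); across the alternatives its adjusted p lay between 0.00169 and 0.0571. Antisense exons of Gm14820 cover 14.6% of the exonic length of Suv39h1, and whether strand was used in counting is not given in the sources used here. Suv39h2 (chromosome 2, 3455815 to 3475031, minus strand), the least abundant of the 10, had 11.4, 11.1 and 12.8 FPKM in the Rbbp4KO libraries, against 7.30, 8.05 and 7.75 FPKM in the Rbbp4F/F libraries. All Rbbp4KO values were above 11 FPKM and the groups did not overlap (log2 fold change 0.55, SE 0.11, limma adjusted p = 0.00406), a call that held under every alternative. Exons of Dclre1c and Gm13184 lie antisense to Suv39h2, the larger overlap covering 8.10% of its exonic length. The summed level of the pair was 32.2 ± 0.744 FPKM in Rbbp4KO cells and 22.8 ± 0.598 FPKM in Rbbp4F/F cells. The ratio of Suv39h1 to Suv39h2 was 1.75 ± 0.199 in Rbbp4KO cells and 1.96 ± 0.0878 in Rbbp4F/F cells, with overlapping values (exact permutation p = 0.3, adjusted p = 0.48).

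The promoters of this pair are shown because both genes rose, from chrX:8074711-8075010 and chr2:3474937-3475236, both on the minus strand and with the same motifs in capitals.
Suv39h1: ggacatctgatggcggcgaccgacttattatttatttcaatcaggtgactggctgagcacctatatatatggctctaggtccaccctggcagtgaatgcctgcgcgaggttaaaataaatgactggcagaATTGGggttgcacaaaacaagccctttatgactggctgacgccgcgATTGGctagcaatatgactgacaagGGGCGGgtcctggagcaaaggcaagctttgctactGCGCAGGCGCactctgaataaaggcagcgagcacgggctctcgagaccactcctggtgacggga
Suv39h2: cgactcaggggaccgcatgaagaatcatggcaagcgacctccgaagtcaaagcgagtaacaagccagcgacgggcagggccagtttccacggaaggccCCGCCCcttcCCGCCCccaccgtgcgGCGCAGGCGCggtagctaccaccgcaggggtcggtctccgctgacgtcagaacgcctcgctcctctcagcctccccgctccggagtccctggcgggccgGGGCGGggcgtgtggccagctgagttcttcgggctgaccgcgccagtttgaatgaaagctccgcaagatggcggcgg
Both held 1 NRF1-type match. The Suv39h1 window also had 1 GC box and 2 CCAAT boxes, and that of Suv39h2 had 3 GC boxes. Cbx5 and Ehmt1 had an NRF1-type match as well, while the windows of Trim28, Setdb1, Atf7ip, Zfp57, Cbx1 and Cbx3 had none, those of Trim28 and Atf7ip lying 25038 and 12684 bases from the annotated 5′ end. The motif was chosen after these sequences were read. Of the tested genes with a listed promoter it was found in 12.3% of 3712 called higher, in 9.96% of 2219 called lower and in 12.2% of 3933 not called. Here too a match in any listed promoter of a gene counted.

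Ehmt1, the partner of G9a, fell, and so did Ehmt2, the G9a gene itself. Ehmt1 (chromosome 2, 24789928 to 24919614, minus strand) had 35.6, 32.1 and 39.1 FPKM in the Rbbp4KO libraries, against 43.8, 46.1 and 46.0 FPKM in the Rbbp4F/F libraries. The groups did not overlap, although the Rbbp4KO values spread more (log2 fold change −0.34, SE 0.09, limma adjusted p = 0.0158). Without Rbbp4F/F replicate 2 (adjusted p = 0.0579), Rbbp4F/F replicate 3 (0.0535) or Rbbp4KO replicate 2 (0.0581) the Ehmt1 call was lost, as it was with equal FPKM sums (−0.19, adjusted p = 0.118). Ehmt2 had 114, 93.5 and 86.0 FPKM in the Rbbp4KO libraries, against 144, 145 and 128 FPKM in the Rbbp4F/F libraries (log2 fold change −0.51, SE 0.12, limma adjusted p = 0.00845). Within libraries, the ratio of Ehmt1 to Ehmt2 was 0.370 ± 0.0747 in Rbbp4KO cells and 0.327 ± 0.0281 in Rbbp4F/F cells (exact permutation p = 0.6, adjusted p = 0.8).

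**Figure D3:**
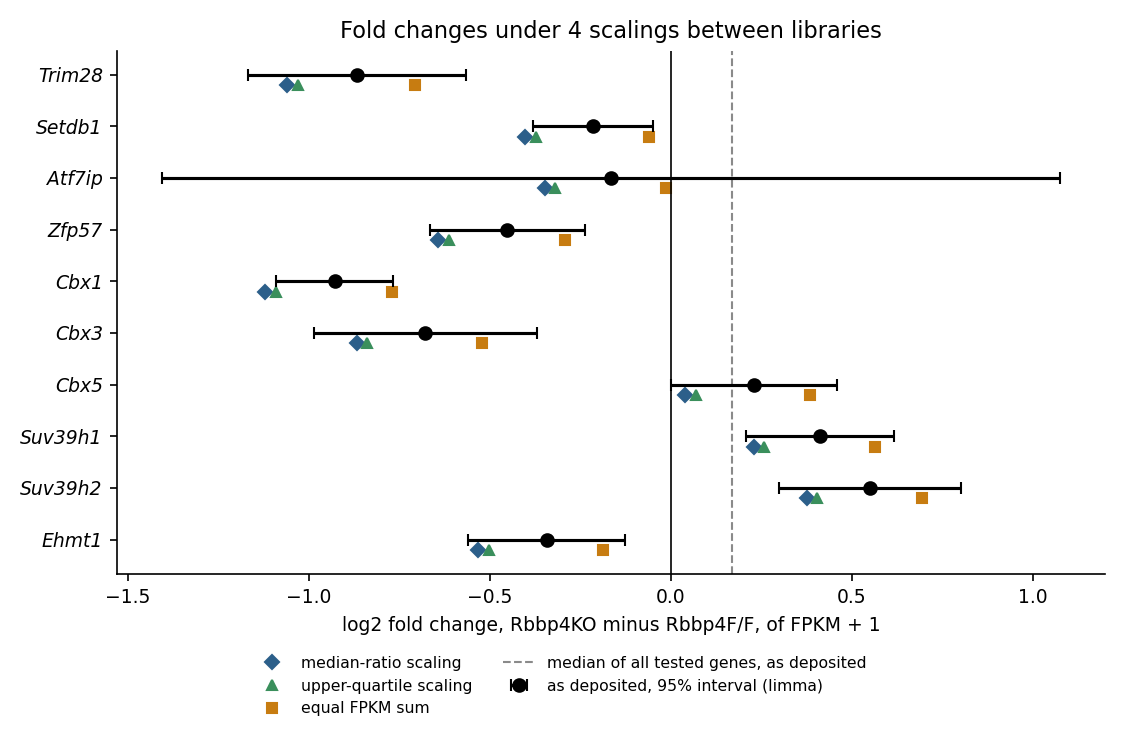
Log2 fold change of FPKM + 1, Rbbp4KO minus Rbbp4F/F, for the 10 genes; black points are the values as deposited with their 95% limma interval, and coloured points the same under 3 other scalings between libraries. Scaling shifts all genes together: Cbx5 runs from 0.04 to 0.38 and Setdb1 from −0.40 to −0.060, and no gene changes sign under these scalings.

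Relative to Setdb1 and to Zfp57, Trim28 was lower in all 3 Rbbp4KO libraries than in any Rbbp4F/F library. Setdb1 stood at 0.0378, 0.0471 and 0.0493 of the Trim28 level in the Rbbp4KO libraries, against 0.0280, 0.0265 and 0.0310 in the Rbbp4F/F libraries. The groups did not overlap (mean log2 difference 0.65, exact permutation p = 0.1, adjusted p = 0.2). Put the other way, Trim28 was 22.6 ± 3.33 times as abundant as Setdb1 in Rbbp4KO cells and 35.3 ± 2.78 times in Rbbp4F/F cells. The ratio of Zfp57 to Trim28 was 0.169 ± 0.0100 in Rbbp4KO cells and 0.127 ± 0.00367 in Rbbp4F/F cells, again without overlap (mean log2 difference 0.41, exact permutation p = 0.1, adjusted p = 0.2). Atf7ip to Setdb1 overlapped, at 0.669 ± 0.477 in Rbbp4KO cells and 0.622 ± 0.377 in Rbbp4F/F cells (exact permutation p = 0.9, adjusted p = 1).

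**Figure D4:**
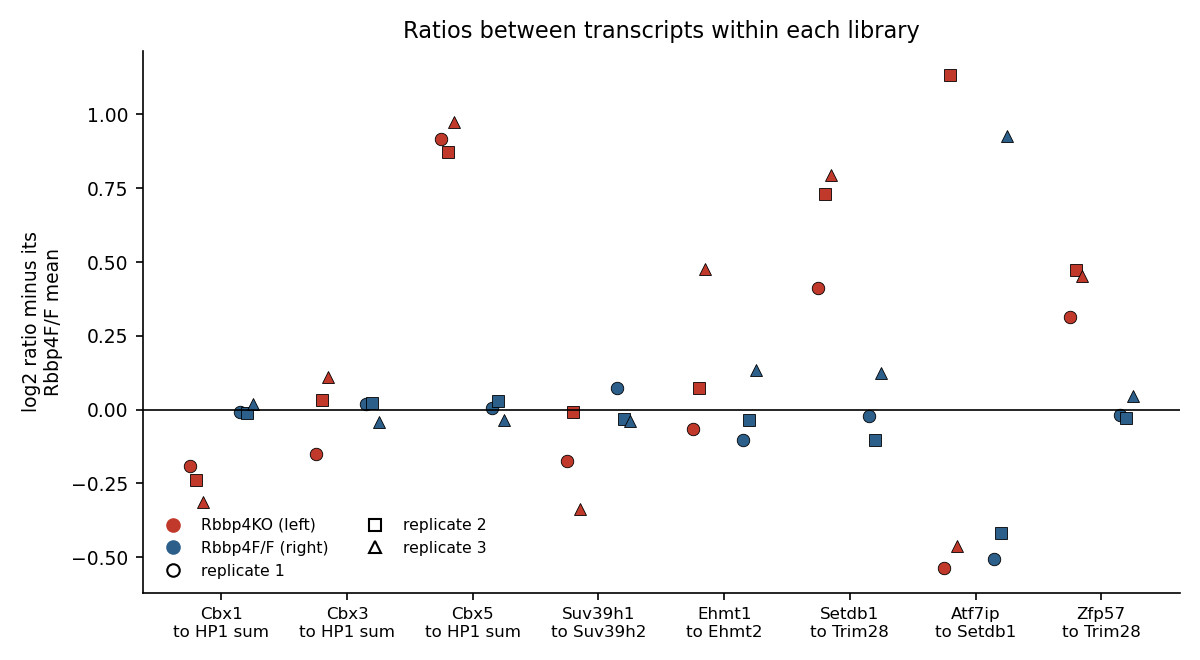
The 8 ratios between transcripts within each library, as log2 ratio minus the mean of the Rbbp4F/F libraries, with Rbbp4KO points to the left of the Rbbp4F/F points of each ratio. The ratios of Cbx5 to the HP1 sum, Setdb1 to Trim28 and Zfp57 to Trim28 are higher and that of Cbx1 to the HP1 sum is lower in all 3 Rbbp4KO libraries; the other 4 ratios overlap.

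By mean level per length, the order in Rbbp4KO cells was Trim28, Zfp57, Cbx1, Cbx5, Cbx3, Ehmt1, Setdb1, Atf7ip, Suv39h1 and Suv39h2. In Rbbp4F/F cells it was Trim28, Cbx1, Zfp57, Cbx3, Ehmt1, Cbx5, Setdb1, Atf7ip, Suv39h1 and Suv39h2. Zfp57 and Cbx1 overlapped in the Rbbp4KO libraries, as did Cbx5 with Cbx3 and Cbx3 with Ehmt1. The values of Atf7ip overlapped those of its neighbours Setdb1 and Suv39h1 in both genotypes. Over the 6 libraries and 9315 other genes with a mean of at least 5 FPKM, the patterns most like that of Trim28 on the log2(FPKM + 1) scale were those of the beta-arrestin gene Arrb2, of Stoml2, which encodes a mitochondrial inner membrane protein, and of the acrosin-binding protein gene Acrbp (each Pearson r = 0.999). For Zfp57 they were D230025D16Rik (r = 0.999), the proteasome subunit gene Psmd3 (0.999) and the meteorin gene Metrn (0.998). These correlations are descriptions over libraries that share the split between the genotypes.

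Other genes of lysine 9 methylation moved in both directions, as did all tested genes, of which 36.7% were called higher and 22.5% lower. The counts for this list and the lists below are to be read beside those shares. Of 8 further methyltransferase and G9a partner genes, 7 were tested, 3 rose and 3 fell, and their median log2 fold change was −0.38 relative to all tested genes. That median was the value of the 1 tested gene that was not called. With no filter on low values, 4 rose and 3 fell, and the median was 0.12 relative to all genes. Prdm2, a PR domain gene, rose to 37.7 ± 0.906 FPKM in Rbbp4KO cells, against 20.3 ± 1.22 FPKM in Rbbp4F/F cells (log2 fold change 0.86, limma adjusted p = 0.000215). Setdb2 had 5.57 ± 0.638 FPKM in Rbbp4KO cells and 3.26 ± 0.295 FPKM in Rbbp4F/F cells (0.62, limma adjusted p = 0.00646), and Cdyl, which encodes a chromodomain corepressor, had 18.8 ± 0.421 FPKM in Rbbp4KO cells and 26.3 ± 1.36 FPKM in Rbbp4F/F cells (−0.46, limma adjusted p = 0.00288). Of 11 demethylase genes, 10 were tested, 3 rose and 4 fell (2 and 5 with median-ratio scaling), with a median of −0.18 relative to all tested genes. The number that rose was also 2 with upper-quartile scaling, and with any library other than Rbbp4KO replicate 1 left out. Kdm4a fell to 17.3 ± 0.775 FPKM in Rbbp4KO cells, against 32.4 ± 2.52 FPKM in Rbbp4F/F cells (−0.87), while the plant homeodomain finger genes Phf2 (1.12) and Phf8 (0.72) rose.

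The HUSH complex and MORC genes, which act with Setdb1 and Atf7ip, were mostly not called: of 8 tested by limma, 1 rose and 0 fell, counts that were the same at an unadjusted p under 0.05. Over all tested genes, 59.1% were called. The list given this name also holds Atf7ip2, Fam208b and Resf1, which encode neither core HUSH subunits nor MORC proteins. The gene that rose was the HUSH subunit gene Pphln1, at 17.5 ± 2.73 FPKM in Rbbp4KO cells and 12.4 ± 0.205 FPKM in Rbbp4F/F cells (log2 fold change 0.46, limma adjusted p = 0.0197). No HUSH or MORC gene was called with median-ratio or upper-quartile scaling, or without any Rbbp4F/F library or Rbbp4KO replicate 2 or 3, and 4 were called without Rbbp4KO replicate 1. Of the Trim28 paralogs Trim24, Trim33 and Trim66, 2 were tested by limma and 0 were called, against 1 at an unadjusted p under 0.05. That gene, Trim33, had 12.9, 21.3 and 28.2 FPKM in the Rbbp4KO libraries and 12.3, 11.5 and 12.4 FPKM in the Rbbp4F/F libraries (0.68, limma adjusted p = 0.0533), and it was called higher without Rbbp4KO replicate 1 (0.97, adjusted p = 0.00145).

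Among 16 genes of HP1 partners and of heterochromatin maintenance, 15 were tested, 2 rose and 5 fell. For comparison, 36.7% of all tested genes were called higher and 22.5% lower. The number that rose was 5 with equal FPKM sums, 1 with median-ratio scaling, 4 without Rbbp4KO replicate 1, and 1 without Rbbp4F/F replicate 1 or 3 or Rbbp4KO replicate 2. The 3 with the smallest p all fell. Uhrf1, which encodes the reader of hemimethylated DNA, had 83.3 ± 9.87 FPKM in Rbbp4KO cells and 181 ± 4.22 FPKM in Rbbp4F/F cells (log2 fold change −1.12, limma adjusted p = 0.000140). Chaf1b, a subunit gene of the chaperone CAF-1 that also contains Rbbp4, had 59.6 ± 9.33 FPKM in Rbbp4KO cells and 117 ± 9.004 FPKM in Rbbp4F/F cells (−0.97), and the maintenance methyltransferase gene Dnmt1 fell as well (−0.51). Chaf1a, the other CAF-1 subunit gene of the list, had 59.8, 58.4 and 52.5 FPKM in the Rbbp4KO libraries, against 50.5, 50.8 and 46.2 FPKM in the Rbbp4F/F libraries. Its groups did not overlap, with the Rbbp4KO values above, but it was not called (0.21, limma adjusted p = 0.0694), and it was singled out after its values were seen. Of 15 genes of the SUMO pathway, which modifies Trim28, 4 rose and 4 fell (4 and 6 with median-ratio scaling, 5 and 2 with equal FPKM sums). Of these genes 3 rose and 2 fell without Rbbp4F/F replicate 1, 4 rose and 2 fell without Rbbp4F/F replicate 2, and 6 rose and 5 fell without Rbbp4KO replicate 1. The protease gene Senp1 (0.87) and the ligase gene Pias1 (0.86) rose, and Uba2, a subunit gene of the activating enzyme, fell (−0.48).

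Of 7 KRAB zinc finger genes with described targets, 6 were tested, 3 rose and 1 fell, at a median of 0.69 above that of all tested genes. The shares over all tested genes were 36.7% higher and 22.5% lower. Without Rbbp4KO replicate 1, 4 rose and 2 fell. With equal FPKM sums or without Rbbp4F/F replicate 3, 4 rose and 1 fell. Zfp568, whose protein silences a placental Igf2 promoter in mice, had 126, 112 and 109 FPKM in the Rbbp4KO libraries, against 34.6, 37.0 and 37.4 FPKM in the Rbbp4F/F libraries (log2 fold change 1.64, limma adjusted p = 3.66e-05). It therefore lay close to Zfp57 in the Rbbp4KO libraries. Igf2, an imprinted gene singled out after its values were seen, rose as well (log2 fold change 2.42, limma adjusted p = 0.00240). Its levels were 82.0, 243 and 249 FPKM in the Rbbp4KO libraries, against 34.6, 33.5 and 25.7 FPKM in the Rbbp4F/F libraries. The values are per gene and not per promoter, and a link with Zfp568 was not tested. Rsl1, a regulator of sex-limited liver genes, rose at a low level (1.19), and Gm15446 fell to 2.32, 2.39 and 3.88 FPKM in the Rbbp4KO libraries, against 11.9, 33.2 and 7.82 FPKM in the Rbbp4F/F libraries (−2.05, limma adjusted p = 0.00866).

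Genes whose control regions bind Zfp57 moved both ways. Of 26 imprinted genes, 24 were tested, 12 rose and 4 fell, a split of 9 and 8 with median-ratio or upper-quartile scaling and of 12 and 2 with equal FPKM sums. All tested genes moved both ways too, with 36.7% higher and 22.5% lower. They split into 3887 higher and 3969 lower with median-ratio scaling. The median of the imprinted genes exceeded the one over all genes by 0.16, and 2 of the 24 passed the filter through the Rbbp4KO libraries alone. Sgce had 12.6, 14.8 and 15.1 FPKM in the Rbbp4KO libraries, against 3.55, 3.88 and 3.91 FPKM in the Rbbp4F/F libraries (log2 fold change 1.66, limma adjusted p = 7.90e-05). H13 (0.68) and Zrsr1 (0.85) also rose, and antisense exons cover up to 8.55% of H13 and 9.17% of Zrsr1. Of 11 germline genes described as silenced through lysine 9 methylation, 4 passed the filter, 1 of them through the Rbbp4KO libraries alone, while the other 7 stayed at or below 0.84 FPKM in every library and 3 of them were listed at 0 throughout. Taf7l, the germ cell transcription factor gene that passed in this way, had 15.03, 18.8 and 20.1 FPKM in the Rbbp4KO libraries, against 0.95, 0.53 and 0.66 FPKM in the Rbbp4F/F libraries (3.47). Ddx4 (1.96), an RNA helicase gene, and Mael (1.05), a piRNA pathway gene, passed in both genotypes and rose. Tex101, singled out after its values were seen, also rose (0.80), but reached 1 FPKM in only 1 Rbbp4F/F library.

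**Figure D5:**
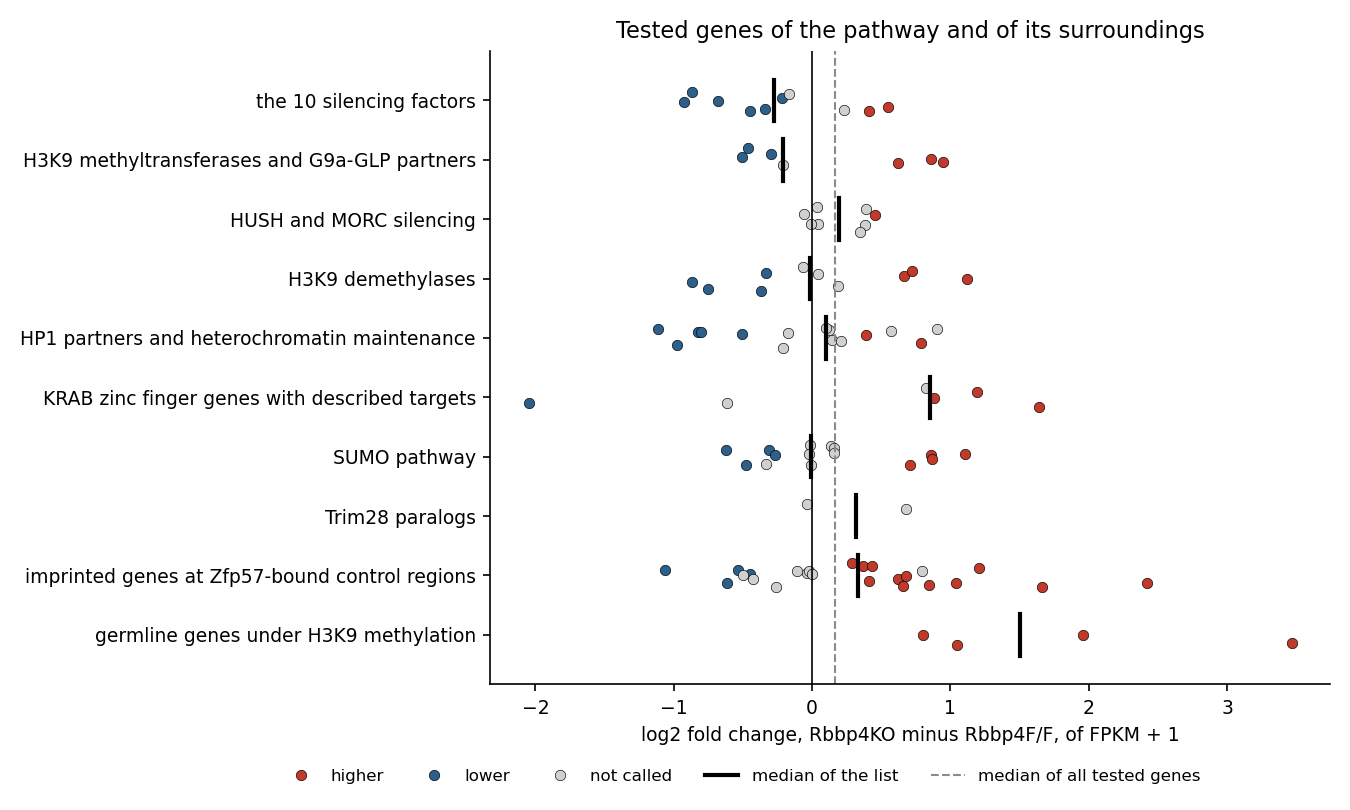
Log2 fold change of FPKM + 1, Rbbp4KO minus Rbbp4F/F, of the 10 silencing factors and of the tested genes of 9 related lists; red genes were called higher, blue genes lower and grey genes were not called, black bars are list medians and the dashed line is the median of all tested genes, 0.17. The 10 silencing factors have their median at −0.28 and the HUSH and MORC genes at 0.20.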

How the data were processed

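The deposited tables give 1 value per gene, read as FPKM because the values are not whole numbers and sum to 697933 to 800146 per library. Per the submitters' processing notes the tools included HISAT2 2.1.0, FastQC, DESeq 1.26.0 and RSEM, with GRCm38.p6 as the build and no roles stated. Being relative to library size, FPKM of other genes go up when abundant transcripts go down. Of 51912 Ensembl identifiers 51719 matched GENCODE M21, and 2 rows of stray text were left out. The test used limma 3.58.1 (R 4.3.3) with a mean trend on log2(FPKM + 1), genotype alone in the model, and 13579 genes with 1 FPKM or more in at least 3 libraries. P-values were two-sided and Benjamini-Hochberg adjusted over those genes, with calls under 0.05. The fit was also run on simulated data with few changed genes and no shift between libraries. That run does not cover the scaling or a change as broad as the one here. Fold changes are Rbbp4KO minus Rbbp4F/F and understate low genes. Ratios within a library were compared by exact two-sided permutation over libraries (scipy 1.17.1). Depth was estimated from low values of genes, of which 86.1% to 89.9% lay within 0.15 of a whole step once 270 bases were taken off the length.

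The genes, lists and tests were chosen with earlier results of these data known, and the motifs after the promoters were read. Named genes are the 10 factors, Rbbp4, the 3 genes most like Trim28 and Zfp57, and from each list at most 3 called genes, those of lowest p, or its gene of lowest p if none was called; Ehmt2 was added as the partner of Ehmt1. The alternatives were 4 other scalings, a pseudocount of 0.1, no filter, a filter of 5 FPKM, the replicate number as a block, and the removal of 1 library at a time with a filter on 2 libraries.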

Additional observations from a re-analysis of the deposited data

How the results depend on the processing

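With equal FPKM sums, and with equal sums computed without the 20 most abundant genes, Setdb1 (log2 fold change −0.060 and −0.10) and Ehmt1 (−0.19 and −0.23) were not called, while Cbx5 (0.38 and 0.35) was called higher. With median-ratio scaling Suv39h1 (0.23) was not called, which left 1 of the 10 genes called higher. 0 HUSH and MORC genes were called with median-ratio or upper-quartile scaling, and 1 Trim28 paralog was called with equal sums, with equal sums without the abundant genes and with a filter of 5 FPKM. The cause was not tested beyond the common shift that a scaling gives to all genes. The ratio of Cbx3 to the HP1 sum, near 0 on the log2 scale, turned to 0.00110 with 1 FPKM added.

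With 1 library left out, log2 fold changes ran from −0.23 to −0.21 for Setdb1, −0.68 to 0.29 for Atf7ip, 0.14 to 0.30 for Cbx5 and −0.41 to −0.27 for Ehmt1. The number called ran from 0 to 4 for HUSH and MORC genes, from 0 to 1 for Trim28 paralogs and from 5 to 11 for SUMO genes. Log2 ratios ran from −0.060 to 0.070 for Cbx3 to the HP1 sum and from −0.50 to 0.51 for Atf7ip to Setdb1.

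Replicate numbers do not pair the libraries: deviations of same-numbered libraries correlated at −0.001, −0.009 and 0.049, and not every library correlated best with its own number. With the replicate block, 4872 genes were higher and 2907 lower, Setdb1 (−0.21, adjusted p = 0.0798) was not called and 1 Trim28 paralog was called; the block changed no other call among the 10 genes.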

Other observations

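A few genes around the pathway stood out after their values were seen. The histone H4 lysine 20 methyltransferase genes Kmt5b and Kmt5c, whose proteins act downstream of HP1, were called in opposite directions. Kmt5b had 11.8 ± 3.42 FPKM in Rbbp4KO cells and 6.23 ± 0.443 FPKM in Rbbp4F/F cells (limma adjusted p = 0.0162). Kmt5c had 34.9 ± 5.09 FPKM in Rbbp4KO cells and 61.0 ± 0.476 FPKM in Rbbp4F/F cells (SD, n = 3 each, limma adjusted p = 0.000930). Kmt5b was 1 of the 2 genes that rose among the HP1 partner and maintenance genes, where only 1 rose with median-ratio scaling. The lamin B receptor gene Lbr, which tethers heterochromatin to the nuclear envelope, had 33.0 ± 4.64 FPKM in Rbbp4KO cells and 58.9 ± 3.07 FPKM in Rbbp4F/F cells (limma adjusted p = 0.000929). Single high values of a gene in 1 library occurred in all 6 libraries. Under the definition given for Atf7ip they numbered 64, 16 and 18 in Rbbp4KO replicates 1 to 3 and 9, 16 and 22 in Rbbp4F/F replicates 1 to 3, so they are not particular to the libraries in which Atf7ip was high. In the related lists, for example, Senp7 had 17.8 FPKM in Rbbp4KO replicate 2 and at most 5.97 FPKM elsewhere. Airn and Kdm4d did not pass the filter and are not in these counts, but each had a single high value as well. Airn had 19.1 FPKM in Rbbp4KO replicate 2 and at most 1.33 FPKM in the other libraries. Kdm4d had 22.5 FPKM in Rbbp4F/F replicate 3 and at most 0.57 FPKM elsewhere. These examples all come from the libraries in which Atf7ip was high.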
